A study of Homo sapiens with 28 samples.

Results

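The microRNA processing and silencing machinery was followed here through 10 genes matched by symbol: DROSHA, DGCR8, XPO5 and DICER1, which make microRNAs, and AGO1, AGO2, AGO3, TNRC6A, TNRC6B and TNRC6C, which carry out silencing. Each symbol matched 1 row of the table of 30887 genes, and 10 of 10 members passed the filter on low counts that left 15058 genes for testing. The cells were Kelly, an established human neuroblastoma line with an amplified MYCN gene, so all results are from a single line. Cells received 25 nM of a synthetic microRNA mimic with the transfection reagent Dharmafect 1, and RNA was taken 48 h later. The 7 groups of 4 libraries were a non-targeting scrambled control and 6 mimic groups, those of miR-485-3p, miR-99b-5p, miR-1283, miR-100-3p, miR-380-3p and miR-1915-3p. Whether replicate libraries stem from separate cultures is not stated in the labels, so p-values measure the spread between libraries, which may be technical.

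In the nucleus, the RNase DROSHA and its RNA-binding partner DGCR8 cut the hairpin out of a primary microRNA transcript, and exportin 5, encoded by XPO5, carries it to the cytoplasm. There DICER1 trims the hairpin to a duplex, and an Argonaute protein (AGO1 to AGO3) keeps the mature strand and pairs it with messenger RNAs, mainly through the seed at bases 2 to 8. The GW182 proteins encoded by TNRC6A, TNRC6B and TNRC6C bind Argonaute and recruit the enzymes that shorten the poly(A) tail and remove the cap. A synthetic mimic enters this path at the Argonaute step, so it uses the silencing members and bypasses the nuclear ones.

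The mature sequences of the mimicked microRNAs are shown because the seed, in capitals, sets which messenger RNAs each can pair with. They are from RefSeq on GRCh38.p14, and no seed was shared between mimics. The files do not give the sequences of the mimic duplexes themselves.
miR-99b-5p: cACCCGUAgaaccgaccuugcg
miR-380-3p: uAUGUAAUaugguccacaucuu
miR-485-3p: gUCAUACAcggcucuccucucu
miR-100-3p: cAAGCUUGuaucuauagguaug
miR-1915-3p: cCCCAGGGcgacgcggcggg
miR-1283: uCUACAAAggaaagcgcuuucu

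The smallest library held 10.99 M expected counts, the median 15 M and the largest 23.3 M. Of 10 adrenergic neuroblastoma markers, 10 were present in every library, with medians from 85.7 CPM (counts scaled by the effective library size) for ISL1 to 4364 CPM for MYCN. Of 7 markers of other cell types, PECAM1 was at 0 in 26 of 28 libraries, COL1A2 in 27 and ALB in 22. VWF, EPCAM, KRT19 and COL1A1 were detected in every library, the last with a median of 7.05 CPM. The summed level of the 7 markers was 12.2 to 15 CPM in the control, 6.45 to 7.74 CPM under miR-99b-5p, 13.4 to 17.1 CPM under miR-380-3p and 9.36 to 12 CPM under miR-485-3p. That of the 10 neuroblastoma markers was 11520 to 12559 CPM in the control, and lower, with no overlap, under miR-99b-5p (8084 to 10050), miR-380-3p (8682 to 10698) and miR-485-3p (7460 to 10232). It overlapped the control range under miR-100-3p (11240 to 13266), miR-1915-3p (9988 to 11715) and miR-1283 (10200 to 13719). The part of these differences in the results was not tested. PTPRC was not analysed here. The second library of miR-485-3p stood apart, with the smallest total (10.99 M) and the steepest dependence of level on transcript GC content (a slope of 3.04 log2 units per unit of GC fraction, against -2.16 to 1.94 in the others). Without it, 5 members still differed from the control under miR-485-3p, and the largest shift among those 5 was for TNRC6C, from 0.72 to 0.80.

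All 10 members had counts in every library, with a lowest value of 164 for AGO2. Compared per kb of merged exon and averaged over the 28 libraries, XPO5 was highest at 24.8 CPM per kb, followed by DROSHA (22.2), DGCR8 (20.8), DICER1 (16) and TNRC6A (13.5). AGO1 followed at 9.19 CPM per kb, then TNRC6B (4.78), TNRC6C (4.67), AGO3 (2.05) and AGO2 (1.53). TNRC6B and TNRC6C did not differ beyond their spread in the control, at 4.81 ± 0.951 and 4.43 ± 0.737 CPM per kb (SD, n = 4). The order rests on the gene length used. With the length column of the deposited table, XPO5 was again highest (53.4 CPM per kb), TNRC6A (33.5) lay above DICER1 (23), and TNRC6B (6.73) became the lowest, just under AGO3 (7.09) and AGO2 (7.29). The Argonaute and GW182 genes are paralogs, and how reads shared between them were assigned is not given in the sources used here.

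Against the control, 10 of the 60 member-mimic pairs differed at an adjusted p under 0.05 (edgeR's quasi-likelihood test, Benjamini-Hochberg over all 15058 genes), 4 higher and 6 lower. They fell on 6 of the 10 members, while 1 or more mimics called 39% of all genes, and the GW182 genes took 6 of the 10 pairs. A single test per gene for any difference among the 7 groups called 6 of 10 members, and 48.7% of all genes tested. The smallest adjusted p of that test was for TNRC6A (1.11e-09, rank 194 of the genes tested), then TNRC6C (1.87e-08), TNRC6B (1.38e-06), XPO5 (7.06e-06), AGO1 (0.00452) and DGCR8 (0.00535). DICER1 (0.0844), DROSHA (0.138), AGO3 (0.286) and AGO2 (0.657) missed the threshold. In bulk RNA, fewer cells of a kind and less RNA per cell cannot be told apart, and this holds for each level below.

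**Figure D1:**
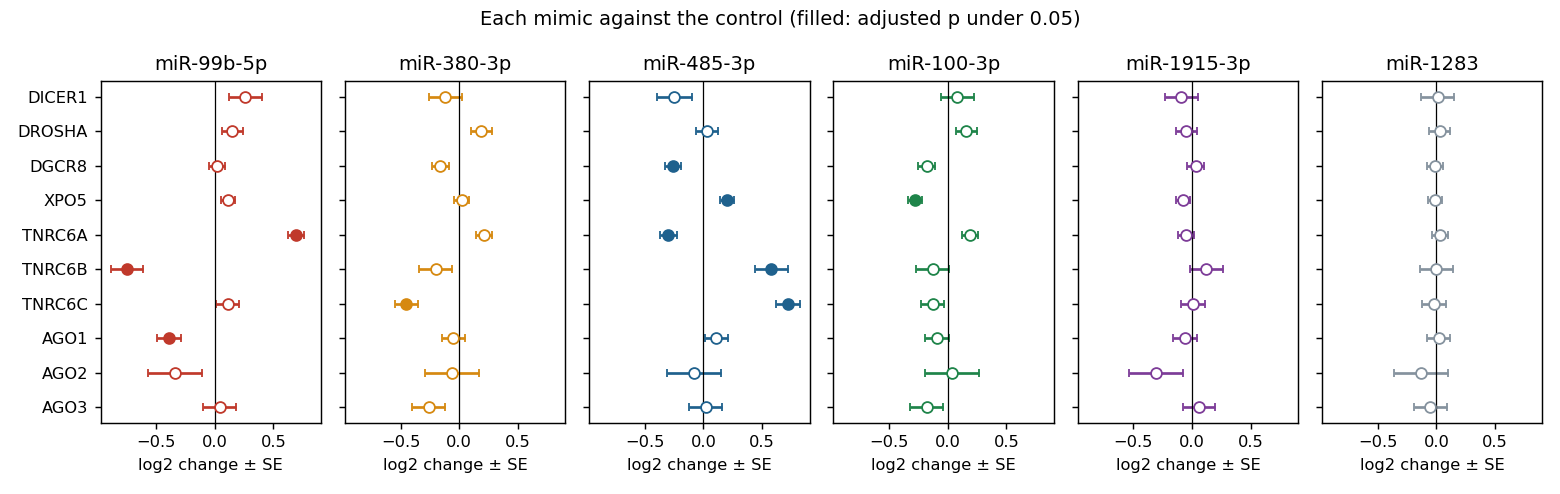
Log2 change of each member against the control (horizontal axis, ± SE from the fit, n = 4 libraries a group), with 1 panel per mimic and filled points for adjusted p under 0.05. The widest changes are those of TNRC6A and TNRC6B under miR-99b-5p and of TNRC6B and TNRC6C under miR-485-3p, and no point is filled under miR-1915-3p or miR-1283.

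Under miR-99b-5p 1 member was higher and 2 were lower, where 8.11% of all genes were called higher and 8.48% lower. Under miR-485-3p 3 members were higher and 2 lower, against 10.5% and 10.6% of all genes. Under miR-380-3p none was higher and 1 was lower (5.6% and 5.25% of all genes), and under miR-100-3p none was higher and 1 was lower (2.9% and 3.05%). No member was called under miR-1915-3p (0.0133% of all genes higher, 0.232% lower) or miR-1283 (0% and 0.0199%). No member had an unadjusted p under 0.05 in either, beside 956 and 453 of the 15058 genes tested. DESeq2 and limma-voom also called none there. The median log2 change of the members was 0.08 under miR-99b-5p, 0.03 under miR-485-3p, -0.09 under miR-380-3p and -0.11 under miR-100-3p, beside medians of -0.003, 0.025, -0.003 and -0.009 over all genes; called members went both ways under miR-99b-5p and miR-485-3p. These comparisons share the 4 control libraries.

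A second set of contrasts left the control out and set each mimic against the mean of the other 5. Here 5 members were called for miR-99b-5p (27.9% of all genes), 6 for miR-485-3p (34.3%), and 1 each for miR-380-3p (20.9%), miR-100-3p (17.1%) and miR-1915-3p (7.12%). For miR-1283 no member was called (1.68% of all genes called), and DESeq2 and limma-voom called none either. None had an unadjusted p under 0.05 there, beside 1723 of the 15058 genes tested. Every pair called against the control was also called in this contrast, in the same direction. Both contrasts use the same libraries of the mimic, so the second is not separate evidence. For some members the other 5 also include a mimic that moved the gene the opposite way, which widens the difference.

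TNRC6A, the GW182 gene with the most RNA per kb in this family, rose under miR-99b-5p and fell under miR-485-3p. Its control libraries stood at 160, 147, 161 and 166 CPM. Under miR-99b-5p they stood at 237, 276, 245 and 264 CPM, all above every other library of the series. The log2 change was 0.69 ± 0.07 (SE), a 1.61-fold rise (adjusted p 1.24e-07, edgeR), and 0.67 against the other mimics. Under miR-485-3p the libraries stood at 130, 115, 130 and 141 CPM, below all 4 controls (log2 change -0.30 ± 0.07, adjusted p 0.00439), and the contrast with the other mimics gave -0.51. The 8 libraries of miR-100-3p and miR-380-3p were also above the control, at 167 to 195 and 168 to 208 CPM, with log2 changes of 0.19 and 0.21 that missed the threshold (adjusted p 0.143 and 0.0623, edgeR). For miR-380-3p that p fell between 0.0207 and 0.0485 in 6 of the alternative fits. Under miR-1915-3p TNRC6A stood at 144 to 160 CPM, overlapping the control range, with a log2 change of -0.05 ± 0.07 against the control. It was called lower there only against the other mimics (-0.22, adjusted p 0.0185, edgeR), whose mean of 182 CPM includes the raised miR-99b-5p libraries. That call was lost without the pair of miR-1915-3p libraries whose titles carry a suffix (adjusted p 0.154), and without replicate 1 (0.0671) or replicate 2 (0.103) of that mimic.

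TNRC6B, which encodes a GW182 protein with the same Argonaute-binding role, moved the other way under both mimics. Its control libraries stood at 89, 87.2, 83.7 and 124 CPM, the last well above the other 3. Under miR-99b-5p they stood at 54.2, 52.5, 46.3 and 76.4 CPM, all below the lowest control. The log2 change was -0.75 ± 0.14 (adjusted p 0.000324, edgeR), and -0.82 against the other mimics. Under miR-485-3p the libraries stood at 133, 122, 136 and 184 CPM, and the lowest of them lay just under the highest control, so the groups overlapped by 1 library each. The log2 change was 0.58 ± 0.14 (adjusted p 0.00291, edgeR). In 3 groups the highest TNRC6B level was in the library numbered 5 or 7 in the titles. Without those 3 libraries the changes were -0.76 (adjusted p 2.88e-06) and 0.59 (5.37e-05). Under the other 4 mimics TNRC6B ranged from 73.2 to 111 CPM and was not called against the control.

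TNRC6C, the third GW182 gene, fell under miR-380-3p and rose under miR-485-3p. The control libraries stood at 47, 45.3, 43.4 and 61.4 CPM. Under miR-380-3p they stood at 35.2, 37.7, 37.6 and 33.9 CPM, below all controls and the lowest values of the series, with a log2 change of -0.45 ± 0.10 (adjusted p 0.00325, edgeR). Under miR-485-3p they stood at 79.5, 67.9, 84.5 and 93 CPM, above all controls, with a log2 change of 0.72 ± 0.10 (1.65-fold, adjusted p 5.05e-06). Under miR-99b-5p, where TNRC6A and TNRC6B changed, TNRC6C was at 48.2 to 60.5 CPM, within the control range, with a log2 change of 0.11 ± 0.10. The 6 pairs called for the GW182 genes against the control were called in 19 of 19 alternative fits each.

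**Figure D2:**
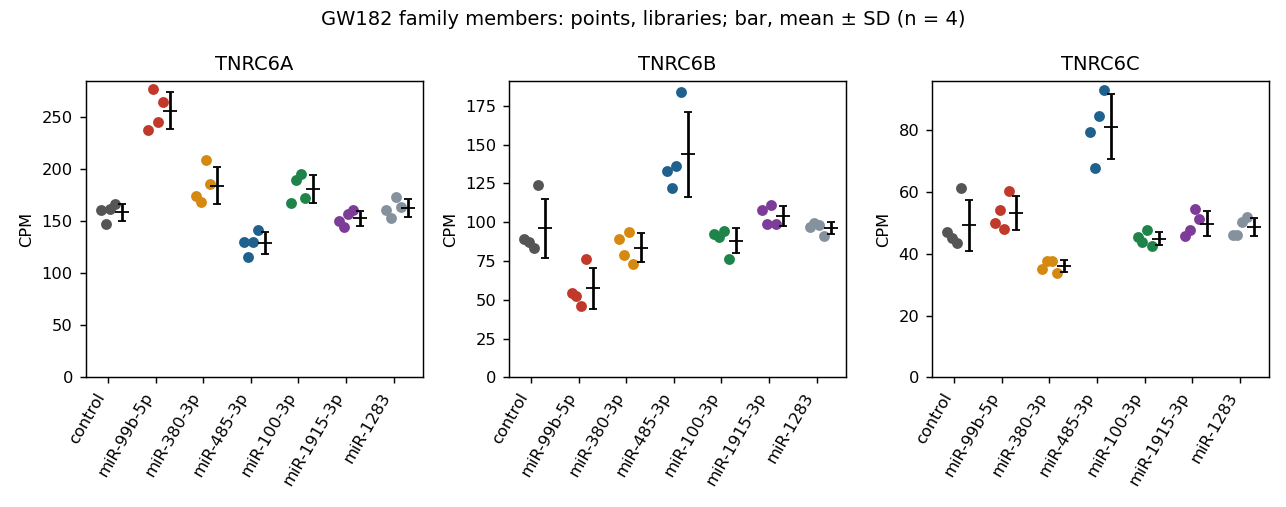
CPM (vertical axis, from 0) of TNRC6A, TNRC6B and TNRC6C in the 7 groups, with 1 point per library and the mean ± SD (n = 4) beside it. TNRC6A is highest and TNRC6B lowest under miR-99b-5p, TNRC6B and TNRC6C are highest under miR-485-3p, and TNRC6C is lowest under miR-380-3p.

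The opposite movements changed the make-up of GW182 messenger RNA. Per kb of merged exon, TNRC6A supplied 57.3% ± 3.58 (SD, n = 4) of the summed level of the 3 genes in the control, 72.2% ± 2.48 under miR-99b-5p and 41% ± 1.83 under miR-485-3p. TNRC6B supplied 22.2% ± 2.16 in the control, 10.4% ± 1.8 under miR-99b-5p and 29.2% ± 2.14 under miR-485-3p. TNRC6C went from 20.5% ± 1.44 in the control to 29.9% ± 0.956 under miR-485-3p and 15.1% ± 1.16 under miR-380-3p. None of these 6 mimic ranges overlapped the control range, but they belong to the pairs called above and are not separate results. Other shares were also clear of the control. TNRC6A supplied 63.9% to 68% under miR-380-3p, against 52.3% to 60.7% in the control. TNRC6C supplied 16.9% to 18.3% under miR-99b-5p, against 19% to 22.4%. The summed level itself was 21.5 ± 2.13 CPM per kb in the control, 27.4 ± 2.15 under miR-99b-5p and 24.5 ± 3.05 under miR-485-3p, and 21.5 to 22.5 in the other 4 groups. With the deposited lengths TNRC6A made up 68%, 80% and 52.3% in the control, miR-99b-5p and miR-485-3p groups, the same order. Shares within a sum are tied to each other, and no test was run on them.

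**Figure D3:**
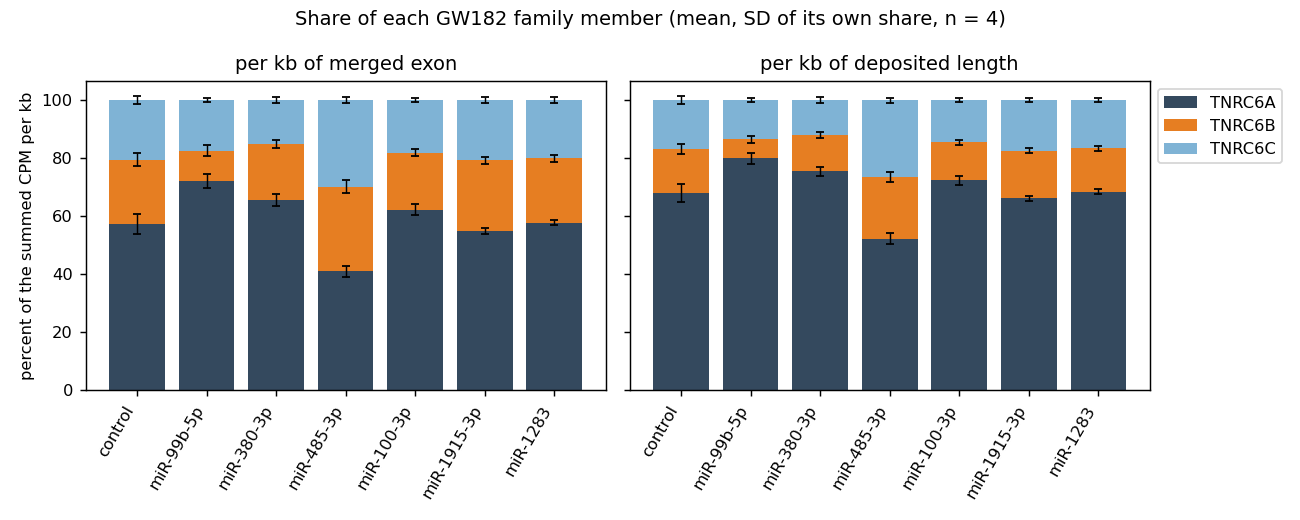
Stacked bars of the share (percent, vertical axis) that TNRC6A, TNRC6B and TNRC6C each take of their summed CPM per kb in the 7 groups, by merged exon length on the left and deposited length on the right. Bars are means of 4 libraries and whiskers are the SD of the share at whose upper edge they stand. The TNRC6A share is largest under miR-99b-5p and smallest under miR-485-3p with either length.

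Among the genes of the processing path, XPO5 rose under 1 mimic and fell under another. Control libraries stood at 213, 207, 206 and 218 CPM, the tightest group of the 4 processing genes. Under miR-100-3p they stood at 182, 189, 165 and 160 CPM, all below the control (log2 change -0.28 ± 0.06, adjusted p 0.00314, edgeR). Under miR-485-3p they stood at 240, 232, 259 and 240 CPM, all above it (0.20 ± 0.06, adjusted p 0.0127, edgeR). The rise was lost with no filter on low counts (adjusted p 0.135), with only the libraries of the 2 groups (0.0705) and without miR-485-3p replicate 3 (0.129). The fall was lost only when the libraries of the 2 groups were fitted alone (0.0622). Against the other mimics the changes were -0.33 for miR-100-3p and 0.25 for miR-485-3p, and a smaller one of 0.14 was called for miR-99b-5p (adjusted p 0.0206, edgeR). This last call was lost in 4 of 34 alternatives, among them without miR-99b-5p replicate 3 (0.101) and replicate 7 (0.0674).

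DGCR8, the RNA-binding partner of DROSHA, was lower under miR-485-3p. Control libraries stood at 150, 160, 183 and 147 CPM, and those of miR-485-3p at 133, 141, 131 and 129 CPM, with no overlap (log2 change -0.26 ± 0.07, adjusted p 0.0136, edgeR). The highest control, replicate 4, decided this call: without it the change was no longer past the threshold (adjusted p 0.0839). The contrast with the other mimics, which does not use the control, gave -0.20 (adjusted p 0.0101, edgeR) and was called in 34 of 34 alternatives. DROSHA itself was the steadiest of the 4 processing genes across groups by this test. It ranged from 150 to 219 CPM over the 28 libraries, its largest log2 change against the control was 0.19 ± 0.09 under miR-380-3p (adjusted p 0.189, edgeR), and no contrast called it.

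DICER1 was not called against the control under any mimic, but its libraries spread widely. It stood at 204, 196, 161 and 228 CPM in the control, at 238, 233, 213 and 264 CPM under miR-99b-5p, and at 156, 113, 172 and 226 CPM under miR-485-3p. The lowest value was in the miR-485-3p library that stood apart in GC content. Against the other mimics DICER1 was called higher under miR-99b-5p (0.34 ± 0.11, adjusted p 0.0216, edgeR), a call lost without replicate 2 (0.0552), 3 (0.0515) or 7 (0.103) of that mimic. Against the control the change under miR-485-3p was -0.25 (adjusted p 0.251, edgeR). It passed the threshold without miR-485-3p replicate 5, the highest of its 4 libraries (-0.44, adjusted p 0.0255), and in the fit that adjusts for GC slope (-0.25, adjusted p 0.046). Under miR-485-3p the contrast with the other mimics gave -0.27 (adjusted p 0.0652, edgeR) and passed the threshold in several alternatives, with adjusted p down to 0.000452.

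**Figure D4:**
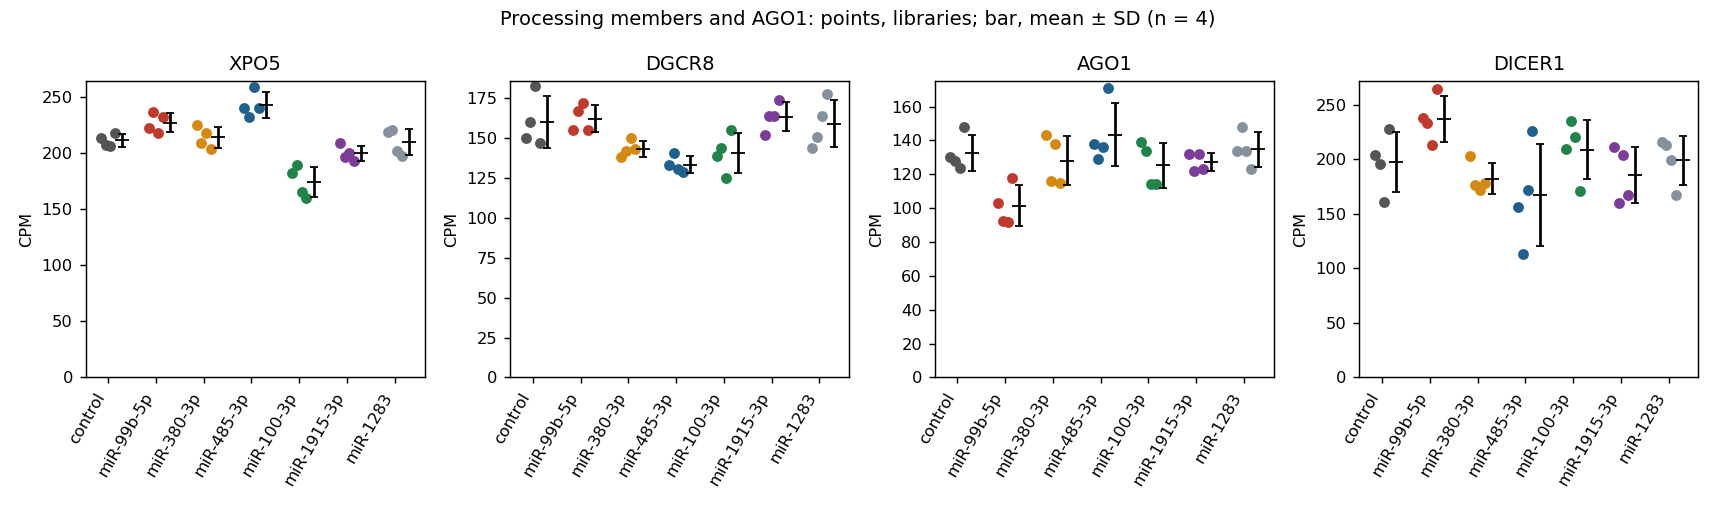
CPM (vertical axis, from 0) of XPO5, DGCR8, AGO1 and DICER1 in the 7 groups, with 1 point per library and the mean ± SD (n = 4) beside it. XPO5 is lowest under miR-100-3p, AGO1 is lowest under miR-99b-5p, and the DICER1 points of miR-485-3p run from 113 to 226.

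Of the Argonaute genes, AGO1 changed. Its control libraries stood at 130, 128, 124 and 148 CPM and those of miR-99b-5p at 103, 92.7, 92.1 and 118 CPM, all below the lowest control. The log2 change was -0.39 ± 0.10 (adjusted p 0.00561, edgeR), and it was called in 19 of 19 alternatives. Against the other mimics AGO1 was lower under miR-99b-5p (-0.38, adjusted p 0.000491, edgeR) and higher under miR-485-3p (0.23, adjusted p 0.0183). The latter rested on miR-485-3p replicate 5, at 171 CPM, without which the adjusted p was 0.285. Under the other 4 mimics AGO1 stood at 114 to 148 CPM.

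AGO2, the Argonaute with slicing activity, had the fewest counts of the set (164 in its lowest library) and the widest relative spread. In the control it stood at 23.2, 23.4, 20.5 and 37.5 CPM, and under miR-485-3p at 22.3, 15, 21.7 and 40.5 CPM. Its largest log2 change against the control was -0.34 ± 0.23 under miR-99b-5p (adjusted p 0.36, edgeR), with libraries at 15.5, 18.9, 16.3 and 32.2 CPM. It was -0.23 against the other mimics (adjusted p 0.38, edgeR). In that contrast, without replicate 7, the highest of these 4, it was -0.52 and passed the threshold (adjusted p 0.0432). AGO3 ranged from 25.7 to 54.7 CPM, and its largest change was -0.26 ± 0.14 under miR-380-3p (adjusted p 0.254, edgeR), where replicate 2 held the lowest value of the series. With the GC slope as a covariate that AGO3 change was -0.36 and passed the threshold (adjusted p 0.00465). No contrast of the main test called AGO2 or AGO3.

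**Figure D5:**
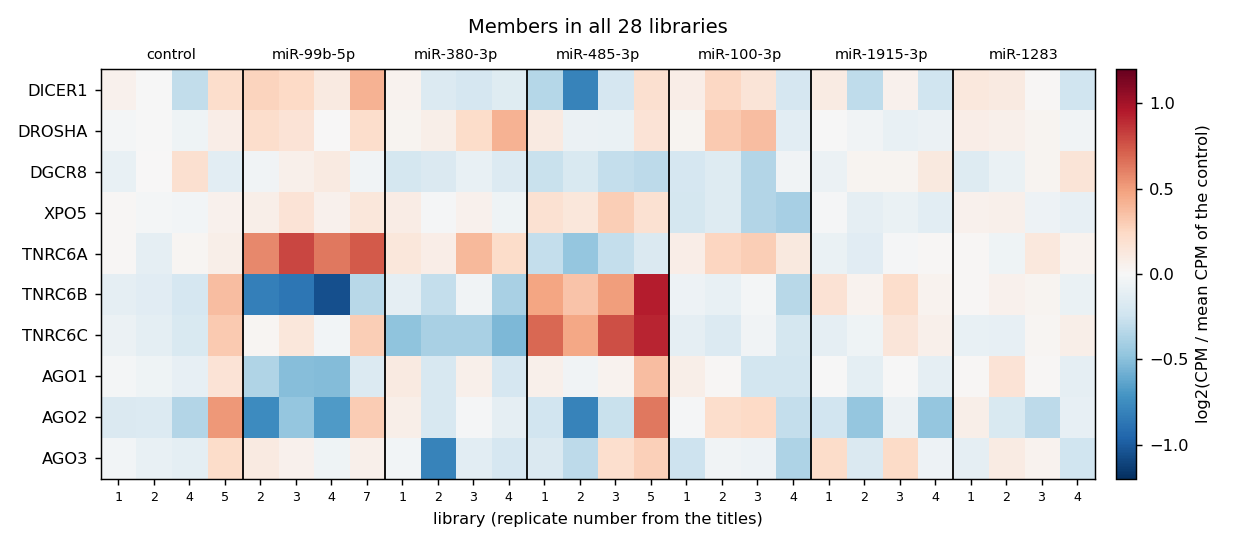
Colour map of log2(CPM divided by the mean CPM of the control), for the 10 members (rows) in 28 libraries (columns, by group and replicate number). TNRC6A and TNRC6B take opposite colours under miR-99b-5p and under miR-485-3p, and the libraries numbered 5 or 7 are the highest of their groups for TNRC6B, AGO2 and DICER1.

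The pairing of each seed with the members was read from the longest 3′ UTR of a protein-coding transcript (GENCODE 29, GRCh38), as the 7 letters complementary to bases 2 to 8. The letters searched on the messenger strand were TACGGGT (miR-99b-5p), ATTACAT (miR-380-3p), TGTATGA (miR-485-3p), CAAGCTT (miR-100-3p), CCCTGGG (miR-1915-3p) and TTTGTAG (miR-1283). Member UTRs ran from 935 bases in DROSHA to 16755 in AGO3, and 9 of 10 were longer than the median of 1442 over the 12532 tested genes with a UTR. The deposited lengths of AGO1 (10241 bases), AGO2 (3317.5) and AGO3 (6131.7) were shorter than their searched UTRs (10921, 11888 and 16755). Whether all searched bases are present in the RNA of these cells was not tested, so counts of matches may include absent ones. Long UTRs hold more matches by their length alone, so matches in single members are given beside the share with a match among tested genes whose UTR is within 1.5 times the same length. Shares for coding sequence are over genes of any coding length.

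Of the 60 member-mimic pairs, 27 had a match in the UTR. Of these, 3 were called lower (11.1%) and 1 higher, and of the 33 without a match 3 were called lower (9.09%) and 3 higher. Under the 4 mimics with any member called, 15 pairs had a match, of which 3 were called lower (20%), and 25 had none, of which 3 were called lower (12%). A match followed by A was present in 8 of the 60 pairs, with 0 called lower and 1 higher. Matches were held by 1 member for miR-99b-5p (AGO2), 5 for miR-380-3p, 5 for miR-485-3p, 4 for miR-100-3p, 5 for miR-1915-3p and 7 for miR-1283. Over all tested genes with a UTR the shares were 1.26%, 15%, 14.3%, 10.5%, 23.1% and 20.8%. For miR-99b-5p 40.5% of all genes with a match were called lower and 8.87% of those without. For miR-485-3p these were 28% and 8.21%, for miR-380-3p 14.6% and 4.13%, and for miR-100-3p 9.44% and 2.75%.

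The matches in the members that fell are printed here with the matching letters in capitals. They are places where bases 2 to 8 of the mimic and the changed messenger RNA can pair. Shorter seed matches were not searched. TNRC6C has a pair of them for miR-380-3p, at chr17:78106832-78106838 and chr17:78107045-78107051, plus strand, and 29.3% of the 2691 genes with a UTR of similar length have at least 1. TNRC6A has a pair for miR-485-3p, at chr16:24825528-24825534 and chr16:24825921-24825927, plus strand (18.8% of 3649 genes). XPO5 has 1 for miR-100-3p, which begins at base 3 of its UTR, at chr6:43523859-43523865, minus strand (7.51% of 3594 genes).
TNRC6C, miR-380-3p, site 1: gaaacttgtgcATTACATttttttaattag
TNRC6C, miR-380-3p, site 2: atctcattgccATTACATgcgttctatata
TNRC6A, miR-485-3p, site 1: caaagttgctaTGTATGAgggttctcatag
TNRC6A, miR-485-3p, site 2: atggatttcagTGTATGActtcagatcatg
XPO5, miR-100-3p: atCAAGCTTttgggcatcctt
None of these 5 is followed by A, the letter that extends a seed match to 8 bases.

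TNRC6B under miR-99b-5p, the largest fall of the set, had no match in its 12567-base UTR. Its coding sequence of 5172 bases held 2, at chr22:40265667-40265673 and chr22:40310902-40310908, plus strand. Of all tested genes with a UTR, 1.64% have any coding match for this mimic, a share not matched for coding length. The coding sequence was searched after the values had been seen. XPO5 also had 1 coding match for miR-100-3p (9.7% of all genes), at chr6:43524549-43524555, minus strand. AGO1 under miR-99b-5p and DGCR8 under miR-485-3p, which also fell, had no match in either region.
TNRC6B coding, miR-99b-5p, site 1: aataacaggtcTACGGGTgggtcctggaac
TNRC6B coding, miR-99b-5p, site 2: ctgggtggccaTACGGGTcctgctggtgat
XPO5 coding, miR-100-3p: cagtttgactgCAAGCTTttaaacccctcc

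A match was also present where a member did not fall. TNRC6B rose under miR-485-3p with 1 match followed by A, at chr22:40332341-40332347 (plus strand), in a UTR so long that 59.6% of the 267 genes of similar length have 1. AGO1 held 3 matches for miR-100-3p, 1 of them followed by A, with a log2 change of -0.09 ± 0.10 (42.9% of the 380 genes of similar UTR length have at least 1). AGO2 held 4 matches for miR-1915-3p with a log2 change of -0.31 ± 0.23 (adjusted p 0.951, edgeR), where 54.3% of the 304 genes of similar UTR length have at least 1. The searched UTRs of AGO1 and AGO2 are longer than the deposited lengths of these genes, as given above. Under miR-1283, for which 7 members held a match, the log2 changes of the 10 members lay between -0.13 and 0.03.
TNRC6B, miR-485-3p: atttggcaggcTGTATGAagccaatgagct

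Genes that work with the 10 members were taken from 4 lists. Of the nuclear cofactors of processing and export, 6 of 14 were called under at least 1 mimic, beside 39% of all genes tested. Under miR-485-3p 1 was higher and 4 were lower (10.5% and 10.6% of all genes), under miR-99b-5p 1 was higher and 1 lower (8.11% and 8.48%), and under miR-380-3p 1 was higher and 1 lower (5.6% and 5.25%), with none called under the other 3. These shares of all genes are the background for the 3 lists that follow too. HNRNPA1, a hairpin-binding splicing factor, rose under miR-99b-5p (2640 against 2101 CPM, log2 change 0.33 ± 0.07) and fell under miR-485-3p (1225 CPM, -0.78 ± 0.07, adjusted p 1.34e-08, edgeR). ERH, a small partner of DGCR8, fell from 160 CPM to 127 CPM under miR-485-3p and to 124 CPM under miR-99b-5p, and HNRNPA2B1, a reader of primary microRNAs, rose from 2159 to 2663 CPM under miR-485-3p, a call lost without replicate 3 of that mimic (adjusted p 0.069, edgeR).

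Of the list of DICER1 partners and Argonaute loading factors, 9 of the 21 that passed the filter were called under 1 mimic or more (39% of all genes), and WTIP did not pass. The counts were 3 higher and 1 lower under miR-99b-5p, 1 and 2 under miR-380-3p, and 0 and 3 under miR-485-3p. TSNAX, a subunit of the C3PO nuclease that clears the passenger strand, fell under miR-380-3p from 59.6 to 28.5 CPM (log2 change -1.07 ± 0.14, adjusted p 9.65e-06, edgeR). DNAJA2, a co-chaperone of Argonaute loading, fell under the same mimic from 98.5 to 54.5 CPM (-0.85 ± 0.07). FKBP5, an HSP90 co-chaperone, fell under miR-99b-5p from 177 to 119 CPM, and the helicase gene MOV10 rose under miR-99b-5p from 44 to 68.6 CPM (0.64 ± 0.10) and under miR-380-3p to 55.8 CPM (0.34 ± 0.10). The latter call held in 11 of 19 alternatives and not when replicate 3 or 4 of the mimic, or control library 1, 2 or 5, was left out (adjusted p 0.0568 to 0.108, edgeR).

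Of the deadenylation, decapping and decay genes downstream of the GW182 proteins, 11 of 29 were called under at least 1 mimic, again beside 39% of all genes. The counts were 4 higher and 1 lower under miR-99b-5p, 1 and 2 under miR-380-3p, 5 and 3 under miR-485-3p, and 0 and 4 under miR-100-3p (2.9% and 3.05% of all genes). DCP2, the decapping enzyme, stood at 88.1 CPM in the control. It rose to 145 CPM under miR-485-3p (0.71 ± 0.15, adjusted p 0.000912, edgeR) and fell to 53.4 CPM under miR-380-3p (-0.73 ± 0.15) and 51.7 CPM under miR-100-3p (-0.77 ± 0.15). CNOT6, a deadenylase of the CCR4-NOT complex, fell under miR-485-3p from 116 to 74.4 CPM (-0.64 ± 0.08) and rose to 140 CPM under miR-99b-5p (0.27 ± 0.08), a call that leaving out control library 4 or mimic library 2 or 4 ended (adjusted p 0.0561 to 0.0914, edgeR). LSM14B, a P-body protein, was called under 4 mimics, higher under miR-485-3p (0.50 ± 0.08) and miR-380-3p (0.29 ± 0.08) and lower under miR-100-3p (-0.44 ± 0.08) and miR-99b-5p (-0.23 ± 0.08). Its call under miR-99b-5p held in 9 of 19 alternatives and ended when mimic library 2, 3 or 7 or control library 2, 4 or 5 was left out (adjusted p 0.0542 to 0.172, edgeR). Its call under miR-380-3p held in 14 and ended without mimic library 3 or 4 or control library 1 or 2 (0.0511 to 0.055). BTG2, which stimulates deadenylation, rose under miR-99b-5p from 26.4 to 41 CPM.

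Of the genes for microRNA tailing, editing and turnover, 5 of 16 were called (39% of all genes), with 1 higher and 3 lower under miR-99b-5p and 1 lower under miR-380-3p. HENMT1, a small-RNA methyltransferase, had the largest fall of the 4 lists' named genes, from 5.12 CPM in the control to 1.18 CPM under miR-99b-5p (-2.10 ± 0.20, adjusted p 1.84e-08, edgeR). The uridylyltransferase TUT4 rose under miR-99b-5p from 109 to 132 CPM, while TENT2, an adenylyltransferase, fell from 35.2 to 29 CPM and DIS3L2, an exonuclease for uridylated RNA, from 28.3 to 24.2 CPM. These 3 calls held in 13, 11 and 12 of 19 alternatives. That of TUT4 ended without mimic library 3 or 7 or control library 1 or 2 (adjusted p up to 0.0777, edgeR), that of TENT2 without mimic library 2, 3 or 7 or control library 1 or 4 (up to 0.0954), and that of DIS3L2 without mimic library 2, 3 or 4 or control library 2 or 5 (up to 0.113). Under miR-1915-3p and miR-1283 no gene of the 4 lists was called. The median log2 change of each list under each mimic lay between -0.10 and 0.07, beside -0.012 to 0.025 over all genes.

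The 16 list genes that met the rule for naming gave 15 calls of lower and 10 of higher. A UTR match for the mimic stood beside 3 of the 15, which were DNAJA2 under miR-380-3p, CNOT6 under miR-485-3p and LSM14B under miR-100-3p, and beside none of the 10. HENMT1, whose UTR is 276 bases, TSNAX and FKBP5 had no match in the UTR or the coding sequence for the mimic under which they fell.

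As a description of pattern alone, the genes whose log2 CPM followed each of the 3 GW182 genes most closely over the 28 libraries were DCX and FREM1 for TNRC6A (Pearson r 0.96 and 0.94), ARSB and AMOTL1 for TNRC6C (0.89 and 0.88), and GOLGA3 and CDC25A for TNRC6B (0.91 and 0.88). These values mix differences between groups with those between libraries. DCX, which encodes the neuronal microtubule protein doublecortin, stood at 19.7 CPM in the control, 63.3 CPM under miR-99b-5p and 13.9 CPM under miR-485-3p. CDC25A, a phosphatase of the cell cycle, stood at 113 CPM in the control, 77 CPM under miR-99b-5p and 156 CPM under miR-485-3p.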

How the data were processed

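Values are the expected counts per gene that the authors deposited in 1 table of 28 libraries, of which 10.2% are not whole. Reads were aligned with STAR to hg19, per the submitters' processing notes, and libraries were made with a stranded mRNA kit, per the labels' protocols. The STAR version, the counting tool and the annotation are not given in the sources used here. Counts were rounded, filtered (filterByExpr), scaled by TMM (factors 0.948 to 1.03) and fitted in edgeR 4.0.16 (R 4.3.3) over all 28 libraries with 21 residual degrees of freedom. The coefficient of variation between libraries was 12.2%. Tests were two-sided. CPM uses the effective library size, and log2 CPM a prior count of 2. The edgeR test was checked on simulated counts with the same dispersion for every gene. That check holds no GC slopes or spread shared between libraries, so it does not give the error rate in these data.

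The 10 members and the 4 lists were chosen with earlier results of these data known. Named list genes are up to 4 per list, called against the control, with the smallest p for any group difference; 1 of them is not reported here. The 2 genes nearest in pattern are given for the 3 members with the smallest such p. GENCODE 29 on GRCh38 gave exons, UTRs and coordinates, and differs from the authors' build. Alternatives were DESeq2 1.42.0, limma-voom (limma 3.58.1), 2 other scalings, 2 other filters, a replicate block, GC slope as a covariate, and subsets of libraries. In the closest pair of libraries of a group, counts differed by 2.89 times the sampling noise (chi-square per degree of freedom), so none was treated as a duplicate.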

Additional observations from a re-analysis of the deposited data

Results flagged for a closer look

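TNRC6B in control replicate 5 stood apart from its group, at 124 CPM against 83.7 to 89 CPM in the other 3 control libraries, a gap of 0.871 times the group's range, which is past Dixon's limit for 4 samples. It was the single such value among 70 groups of 4 checked for the 10 members, where chance gives about 5% of groups. Without that library the log2 change of TNRC6B was -0.60 under miR-99b-5p (adjusted p 0.00301, edgeR) and 0.73 under miR-485-3p (adjusted p 0.000366).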

How the results depend on the processing

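No direction reversed in any alternative run for the 24 called changes of members or the 25 of named list genes. Against the control, 1 member was called for miR-380-3p, and 2 with DESeq2, upper-quartile scaling, a mean CPM of at least 5 or a replicate block, and 3 with GC slope as a covariate. The added gene was TNRC6A, and with GC slope also AGO3. For miR-100-3p the count of 1 became 2 with the replicate block or GC slope, and 0 when only the libraries of the 2 groups were fitted. Against the other mimics, the count of 1 for miR-380-3p became 2 with GC slope. That of 1 for miR-100-3p became 3 with the replicate block or without the 3 libraries numbered 5 or 7, and 2 with GC slope. That of 1 for miR-1915-3p became 0 with no filter or without the 2 suffixed libraries, and 2 with the replicate block, GC slope or without the libraries numbered 5 or 7. The cause was not tested. Shares of all genes called in each alternative fit are not given here, so these changes in count cannot be read as particular to the members. Leaving out each library in turn gave counts against the control of 3 for miR-99b-5p, 1 to 2 for miR-380-3p, 4 to 6 for miR-485-3p and 1 for miR-100-3p. Against the other mimics these were 3 to 6 for miR-99b-5p (3 without its replicate 3), 1 for miR-380-3p, 6 to 7 for miR-485-3p, 1 to 2 for miR-100-3p (2 without miR-485-3p replicate 2) and 0 to 1 for miR-1915-3p. The count for any group difference was 6 to 7.

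Replicate numbers did not pair the libraries throughout. Deviations of same-numbered libraries from their group means correlated at -0.726 to 0.869, with a median of 0.14 against -0.0422 for different numbers. The correlation was over 0.1 in 34 of 67 pairs, and 9 of 28 libraries correlated best with their own number. Spread shared by some libraries of the same number is therefore possible and was not tested. The block ended the call of AGO1 under miR-485-3p against the other mimics (adjusted p 0.0731). It added DICER1 against the control under miR-99b-5p (0.36, adjusted p 0.0364) and miR-485-3p (-0.32, adjusted p 0.031), TNRC6A under miR-380-3p (0.21, 0.0207) and DGCR8 under miR-100-3p (-0.21, 0.0392). In the contrast with the other mimics it added AGO2 under miR-99b-5p (-0.43, 0.0041) and miR-100-3p (0.34, 0.00749), DICER1 under miR-485-3p (-0.46, 0.000452), TNRC6C under miR-100-3p (-0.17, 0.018) and TNRC6B under miR-1915-3p (0.28, 0.000166), all adjusted p from edgeR. Number 7 marks a single library, of miR-99b-5p, so the block in effect leaves that library out. Number 5 marks libraries of the control and miR-485-3p alone. The calls added in the contrast with the other mimics recur below without the libraries numbered 5 or 7, and the recurrence is not separate evidence.

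Counts of called list genes that moved by over 1.5 times, given with their range over the alternatives other than single libraries, were these. Nuclear cofactors numbered 2 (1 to 3) under miR-380-3p. DICER1 partners numbered 3 (2 to 6) under miR-380-3p, 3 (3 to 5) under miR-485-3p, 0 (0 to 2) under miR-100-3p and 0 (0 to 1) under miR-1915-3p. Decay genes numbered 5 (3 to 6) under miR-99b-5p, 3 (2 to 5) under miR-380-3p, 8 (5 to 13) under miR-485-3p and 4 (3 to 7) under miR-100-3p. Tailing genes numbered 4 (2 to 6) under miR-99b-5p, 1 (0 to 3) under miR-380-3p, 0 (0 to 2) under miR-485-3p and 0 (0 to 1) under miR-100-3p. Here too the share of all genes called in each fit is not given, so the ranges cannot be read as particular to the lists. The 27 member-mimic pairs with a seed match became 28 with all annotated UTR bases, 8 when the match had to be followed by A, and 10 when the coding sequence was searched in place of the UTR. Of the members, AGO2 is limited most by depth and spread.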

Other observations

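Libraries numbered 5 or 7 in the titles held the highest level of their group for many members. In control replicate 5 this was so for 9 of 10 members, in miR-485-3p replicate 5 for 8 and in miR-99b-5p replicate 7 for 6. DICER1, DROSHA, TNRC6B, TNRC6C, AGO1 and AGO2 were highest in all 3 of these libraries. The labels do not say what the numbers mark. With these 3 libraries left out, an alternative chosen after seeing the data, AGO2 was called against the other mimics under miR-99b-5p (log2 change -0.46, adjusted p 0.00547, edgeR; 0.38 with all libraries) and miR-100-3p (0.35, adjusted p 0.0143; 0.434 with all libraries). DICER1 was then called under miR-485-3p (-0.44, adjusted p 0.00346, against 0.0652 with all libraries). TNRC6B was called under miR-1915-3p (0.28, adjusted p 0.00535, against 0.247) and TNRC6C under miR-100-3p (-0.18, adjusted p 0.0328, against 0.0672). Calls were also lost in this contrast, for XPO5 under miR-99b-5p (adjusted p 0.0753, edgeR) and AGO1 under miR-485-3p (0.0961).

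AGO3 was called only where GC slope entered the fit, under miR-380-3p and miR-100-3p (-0.28, adjusted p 0.0329, edgeR) against the control.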
